A study of Drosophila melanogaster with 6 samples.

Results

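This account concerns 488 genomic regions that carried a peak of CrebA-GFP with both salivary gland drivers and no peak of endogenous CrebA in Oregon R embryos. They were selected on the presence of called peaks, that is, chosen by merging the peaks of 3 lists wherever peaks overlapped by at least 1 bp, which gave 15071 merged regions, and by keeping those with a peak of the fkh-Gal4 list and of the sage-Gal4 list and none of the Oregon R list. They made up 3.24% of all merged regions and 12.3% (95% exact Clopper-Pearson interval 11.3 to 13.4%) of the 3968 merged regions with a peak of both drivers. The other 3480 of these also held an Oregon R peak and are used below as the comparison set.

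CrebA belongs to the bZIP transcription factors, activates genes for the secretory machinery and is abundant in the embryonic salivary gland, an organ given over to secretion. The gland is specified by the homeotic gene Scr, and its identity is held by factors such as the forkhead protein Fkh and the bHLH protein Sage. Sites near a transcription start belong to promoters, whereas sites inside introns or between genes can belong to enhancers, which act over a distance and often in particular tissues.

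The binding of CrebA was mapped by ChIP-seq at embryonic stages 11 to 16 of Drosophila melanogaster. In the Oregon R group, wild-type embryos with untagged CrebA, chromatin was precipitated with an antiserum to CrebA, so that all tissues with CrebA contributed. In the fkh-GAL4::UAS-CrebA-GFP and sage-GAL4::UAS-CrebA-GFP groups, CrebA with GFP at its C-terminus was expressed by the Gal4/UAS system and precipitated with an antibody to GFP, and the endogenous CrebA gene was not stated to be altered. Each driver works in more than 1 tissue, with the salivary gland named as the tissue common to them. All groups had embryos collected over 8 h and aged for 11 h, with chromatin from 2 collections crosslinked in 1.8% formaldehyde, and whether the collections were pooled is not stated in the labels. With 1 library in each group there is no replicate check on any value, and no test between groups was possible. Antibody, tag, amount of CrebA and tissue all differ between the driver groups and Oregon R, and their parts in the rule that chose the regions cannot be told apart.

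The fkh-Gal4 list held 6464 peaks, the sage-Gal4 list 7916 and the Oregon R list 14039. Peak lists carry no read counts, so the depth is unknown, and a region without an Oregon R peak is one where no peak was called, not one shown to be unbound. Fold enrichment is the authors' value for each peak, a ratio over the caller's local background, and is read within a list only. Coordinates are on dm6. Intervals on shares cover counting error over regions only.

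The strongest of the 488 regions reached the top of the driver lists. Ordered by the worse of the ranks in the driver lists, the first lay inside nvy, which encodes a corepressor of the MTG family, at 2R from 24285562 to 24287029. Its fold enrichment was 3.48 in the fkh-Gal4 list, rank 2, and 3.13 in the sage-Gal4 list, rank 38. The nearest Oregon R peak was 4018 bp away with a fold of 2.6. A further region of the set also lay inside nvy, and both lay away from the gene's ends, where Oregon R peaks stood.

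The next best lay at 3R from 28555818 to 28557234, between mIF2 and fkh, with folds of 2.98 and 3.26 in the fkh-Gal4 and sage-Gal4 lists. It was 24300 bp from fkh, the forkhead gene that maintains gland identity, and 11859 bp from mIF2. The nearest Oregon R peak was 8368 bp away and weak, with a fold of 1.65 and rank 10140. It was 1 of the 4 members nearest to this gene. A region from 28570696 to 28571250 lay 10096 bp from fkh on the same side, with folds of 1.96 and 1.82. On the other side a region from 28593104 to 28594004 lay 8291 bp from fkh with folds of 2.19 and 2.24, and one from 28597575 to 28598107 lay 12389 bp from fkh and beside Noa36, with folds of 1.68 and 1.87. Thus regions without an Oregon R peak lay on both sides of fkh. A region common to all 3 lists lay at the gene itself, with an Oregon R fold of 2.6 and a sage-Gal4 fold of 2.81. On the Noa36 side peaks of all 3 lists also overlapped away from the gene, with an Oregon R fold of 2.08. The members on that side were 2569 and 606 bp from an Oregon R peak, so that flank also had Oregon R binding. Which fkh sequences the fkh-Gal4 driver carries is not given in the labels.

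The third region lay inside CrzR, the receptor gene for the neuropeptide corazonin, at 3L from 12350226 to 12351079, with folds of 2.73 and 2.94. Inside DIP-kappa, which encodes an immunoglobulin-domain protein of the cell surface, a region at 2L from 13687915 to 13688661 had folds of 3.09 and 2.83, and its nearest Oregon R peak was 21091 bp away. Neither CrzR nor DIP-kappa had an Oregon R summit in the gene or within 1000 bp of an end.

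Of the 20 best regions, 2 lay inside genes of enzymes that modify secreted proteins in the Golgi. This count has no background beside it and is a description only. A region inside Tpst, the tyrosylprotein sulfotransferase gene, lay at X from 13575207 to 13576645, 12146 bp from the gene's nearest end, with folds of 3.07 and 2.81. It was also inside CG46311. A further Tpst region, 21 in order, had folds of 2.25 and 2.46. The widest of all 488 regions, 3734 bp at 2L from 5087141 to 5090874, lay inside Pgant5, an enzyme gene that starts mucin-type O-glycans, and was merged from 2 fkh-Gal4 and 4 sage-Gal4 peaks with highest folds of 2.65 and 2.62. Regions of all 3 lists were also in or at both genes, 3 for Tpst and 1 for Pgant5.

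The other members of the best 20 were mostly intragenic. They lay in bab1, a BTB-domain transcription factor gene (2.57 and 3.0), in CG43078, in Strn-Mlck, a muscle kinase gene (2.52 and 3.04), in CG10348, in Ip6k, an inositol phosphate kinase gene (2.41 and 2.75), in ftz-f1, a nuclear receptor gene (2.38 and 2.59), in CG6424, and in bru2, an RNA-binding protein gene (2.27 and 2.47). Between genes lay a region 4453 bp from CG12290 and one 16441 bp from SoxN, a neural transcription factor gene (2.23 and 2.55). Of the 20, the 4 with a summit within 1000 bp of a gene end were those at CG17111, at CG43131, at CG18581 with CG43678 and CG12310, and at prage.

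Most of the 488 were weaker than these. The median fold was 1.83 (range 1.43 to 3.48) in the fkh-Gal4 list and 1.88 (1.43 to 3.26) in the sage-Gal4 list. In rank, the median member stood 37.1% down the fkh-Gal4 list from the top and 46.5% down the sage-Gal4 list, and the median region of the comparison set 33.5% and 27.4%. Members thus ranked lower than the comparison set in both lists, with the larger gap in the sage-Gal4 list. Each region was ranked by its highest peak, and regions of the comparison set more often held several peaks, which favours them. A better percentile in the fkh-Gal4 list was found for 315 members (64.5%), compared with 42.6% of the comparison set. Only 17 of the 488 were in the strongest 10% of both driver lists (3.48%), against 327 of the comparison set (9.40%). These values belong to the lists that chose the regions and are given as a description.

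Over the 488 regions the folds of the driver lists rose together, with Pearson r = 0.682 and Spearman rho = 0.592, and over the 3480 of the comparison set with r = 0.579 and rho = 0.546. Both lists share the GFP antibody and the transgene. The summits of the lists lay a median of 55 bp apart (quartiles 20 and 112 bp), and 83.8% were within 150 bp of each other. In the comparison set the median was 72 bp, and 69.5% were within 150 bp. Merging of overlapping peaks limits this distance, and more so in narrow regions. The members were narrow, with a median merged width of 508 bp against 1424 bp in the comparison set, which has the Oregon R list to merge as well. Single peaks were narrower too, at a median of 411 bp for fkh-Gal4 and 350 bp for sage-Gal4, compared with 484 and 553 bp in the comparison set. Most were single peaks, with 1 fkh-Gal4 peak in 471 and 1 sage-Gal4 peak in 456 of the 488 regions. In the comparison set these counts were 2534 and 2428 of the 3480.

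**Figure D1:**
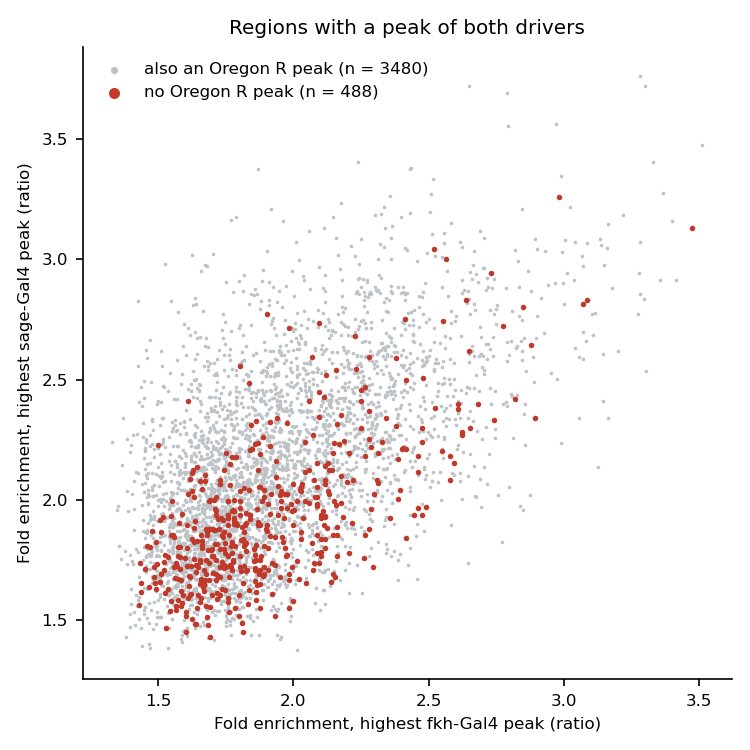
Fold enrichment of the highest fkh-Gal4 peak (x axis, ratio) against that of the highest sage-Gal4 peak (y axis, ratio) for each region found with both drivers, 1 point per region, with red for the 488 without an Oregon R peak and grey for the 3480 with one. Red points reach 3.48 and 3.26 but are dense below 2 on both axes.

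The gap to the nearest Oregon R peak had a median of 1680 bp (quartiles 524 and 4618 bp). An Oregon R peak lay within 1000 bp of 190 members (38.9%) and within 5000 bp of 372 (76.2%). Another 55 lay more than 10000 bp from any. The Oregon R list holds 14039 peaks, and the same shares were not computed for other positions in the genome. These gaps are therefore a description, not a trait particular to the members. The nearest Oregon R peaks had a median fold of 1.87, and all Oregon R peaks one of 1.88.

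Just inside the limit of the rule, the 5 members nearest to an Oregon R peak lay 2, 8, 20, 48 and 51 bp from it. They were inside atos, inside ush, a FOG-family transcriptional cofactor gene, inside Rab10, a vesicle GTPase gene, inside lolal, a BTB protein gene, and inside CG14434. Their folds ran from 1.48 to 1.94. Just outside it, 5 regions were left out for overlaps of driver and Oregon R peaks of 12, 36, 37, 74 and 81 bp, inside CRMP, Tob, fz2 and nkd and, between genes, nearest to CG32986. Their Oregon R folds were 1.5 to 1.82, and their driver folds 1.5 to 2.69. The sets therefore pass into one another at this limit.

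The members farthest from an Oregon R peak were on the proximal parts of chromosome 3 and 2L, near the centromeres. One at 3R from 224347 to 224685 was 1236257 bp from an Oregon R peak and 342525 bp from a gene end, with folds of 1.62 and 1.84. The others lay on 3L, nearest to Dbp80 (1.85 and 2.21), in l(3)80Fj (1.55 and 2.0) and nearest to scro (1.62 and 2.04), and on 2L, nearest to Gpb5 (1.74 and 1.87), with gaps of 67939 to 129973 bp. All 5 were between 339 and 576 bp wide.

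The members lay away from gene ends. A gene end is here either end coordinate of a protein-coding gene, because the gene table used gives no strand, and a region is at a gene end when the highest fkh-Gal4 or sage-Gal4 summit lies within 1000 bp of one. Of the 488 members, 83 were at a gene end (17.0%, exact interval 13.8 to 20.6%), and of 3477 regions of the comparison set on the chromosome arms 2136 were (61.4%, 59.8 to 63.1%). The median distance was 4750 bp for members and 382 bp for the comparison set. Members inside a gene but away from its ends numbered 332 (68.0%), and members outside genes and away from ends 73 (15.0%), against 32.7% and 5.90% of the comparison set. The contrast depends on the overlap rule. When peaks of different lists counted as shared only at a reciprocal overlap of 50%, the shares at gene ends were 52.4% of 1264 regions and 56.1% of the comparison set. When their summits had to lie within 150 bp, the shares were 51.5% of 1398 regions and 56.9%.

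The share at gene ends was below that of the comparison set in each band of peak strength, though the strongest bands held few members. By the worse of the percentiles in the driver lists, 2 of the 12 members in the strongest 5% were at a gene end, and 11 of 124 (8.87%) in the band beyond the 75th percentile. In the comparison set the shares in these bands were 57.0% and 64.4%. Between them the share of members was 16.2 to 40%, the highest being 2 of 5 members, and that of the comparison set 58.8 to 62.7%. Regions of a single driver list that had no Oregon R peak either were also mostly distal, with 23% of 638 fkh-Gal4 regions and 21.3% of 549 sage-Gal4 regions on the arms at a gene end. The distal position is therefore not particular to regions of both drivers.

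**Figure D2:**
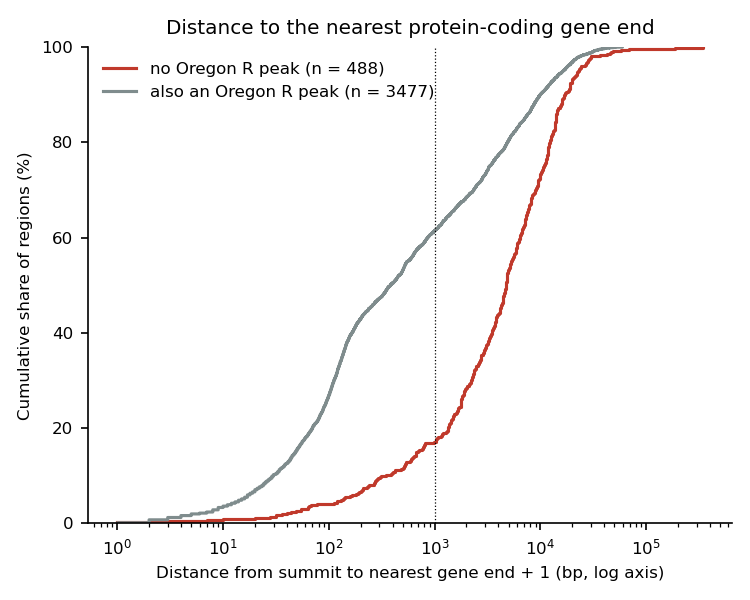
Cumulative share of regions (y axis, %) by the distance from the nearest driver summit to the nearest protein-coding gene end (x axis, bp plus 1, log axis), with members in red and the comparison set in grey. At the dotted line, 1000 bp, the red curve has reached 17.0% and the grey curve 61.4%.

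Read the other way, an Oregon R peak was missing from 3.74% of the driver-shared regions at gene ends (83 of 2219, exact interval 2.99 to 4.62%), and from 21.4% of those over 1000 and up to 5000 bp away, 22.0% of those up to 10000 bp and 27.5% of those farther away. The step came between the first class and the rest, whose intervals overlap from one to the next. By chromosome arm the share ran from 7.82% on the X (58 of 742, 5.99 to 9.99%) to 15.4% on 2L and 15.7% on 3L (126 of 802, 13.3 to 18.4%), with 11.2% on 2R and 11.8% on 3R. Chromosome 4 had 1 member among 14 regions. The X held 11.9% of members and 19.7% of the comparison set. In the other classes of merged regions its share ran from 11.1% (sage-Gal4 alone) to 17.5% (fkh-Gal4 with Oregon R). A share below that of the comparison set is therefore not particular to the members.

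**Figure D3:**
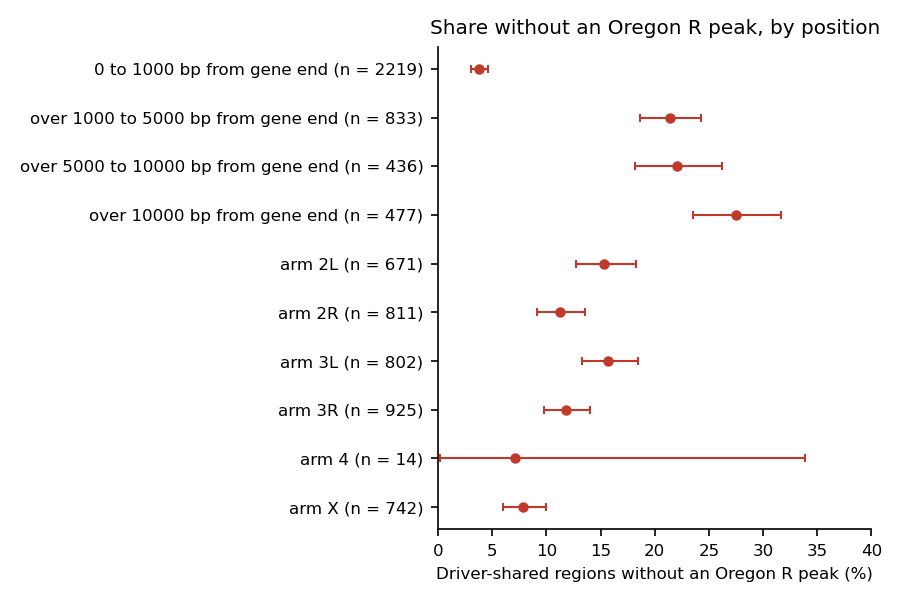
Share of driver-shared regions without an Oregon R peak (x axis, %) by distance to a gene end and by chromosome arm (y axis, with the number of driver-shared regions), as points with 95% exact Clopper-Pearson intervals over regions. The class within 1000 bp of a gene end stands at 3.74%, the other distance classes between 21.4 and 27.5%, and the X is the lowest of the large arms at 7.82%.

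Intragenic members lay in longer genes than intragenic regions of the comparison set. The longest gene around an intragenic member had a median length of 26489 bp, against 11343 bp in the comparison set, both taken over regions. Over all protein-coding genes, each counted once, the median was 2161 bp. A median over regions favours long genes, which hold more sequence, so it is not like the median over genes. Genes over 50000 bp sum to 31.1 Mb and those up to 5000 bp to 19.7 Mb. In all, 312 of 13946 protein-coding genes held a member summit (2.24%), 114 had one within 1000 bp of an end (0.817%), and 384 met either rule (2.75%). Of genes up to 5000 bp long 35 of 10459 held a member (0.335%), and of genes over 50000 bp 63 of 313 did (20.1%). Between these, members were held by 117 of 2468 genes of 5000 to 20000 bp (4.74%) and by 97 of 706 genes of 20000 to 50000 bp (13.7%). Per megabase of gene, members numbered 5.65 and 5.66 in the middle length classes, 3.60 in the longest and 1.78 in the shortest, whereas regions of the comparison set fell from 51.7 in the shortest to 13.2 in the longest.

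Most of these genes also had Oregon R peaks. Of the 312 genes that held a member, 291 (93.3%) had an Oregon R summit elsewhere in the gene or within 1000 bp of an end, as had 64.7% of all protein-coding genes, which are shorter. A region of all 3 lists was in or at 227 of them (72.8%). In most genes that held a member, it was thus additional to Oregon R binding at the same gene. The best ranked of the 21 exceptions, besides CrzR and DIP-kappa, were CG18581, CG9812 and nur. Genes met at an end alone, with a member within 1000 bp of an end and none inside, numbered 72. Of these, 28 (38.9%) had an Oregon R summit in the gene or at an end, against 64.7% of all genes. The rule keeps Oregon R peaks off members, so part of the space searched at these genes was empty by selection. Gene length was not matched either, and the difference is no result about these genes. The best ranked of those without an Oregon R summit were CG17111, CG12310, CG13947 and CG30411. By either rule 319 of 384 genes (83.1%) had one.

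The gene with most members was ftz-f1, with 6, and 20 genes held at least 3. The gene ftz-f1, on 3L from 18750607 to 18801309, encodes a nuclear receptor that sets the competence for responses to ecdysone. Its members had folds of 1.52 to 2.38 in the fkh-Gal4 list and 1.61 to 2.59 in the sage-Gal4 list, and lay 282 to 3520 bp from an Oregon R peak. The gene also held 12 regions common to all 3 lists, so the members were interleaved with them.

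Eip74EF, which encodes an ETS-domain factor induced by ecdysone, held 4 members with folds of 1.52 to 1.92 and 1.48 to 2.32, beside 10 regions of all 3 lists. A like number was found in mam, the gene of the Notch coactivator Mastermind, with 4 members beside 10 common regions, and folds of 1.62 to 1.81 and 1.43 to 1.73. In these 3 genes members were the fewer of the driver-shared regions.

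In 3 other genes with 4 members the balance was the reverse. In bru2 the members lay within 4.6 kb with no Oregon R peak between them, and folds of 1.80 to 2.42 and 1.72 to 2.47, and the gene held 1 region of all 3 lists. In pigs, which encodes a linker of actin and microtubules, the members were spread over 17.6 kb with no Oregon R peak between them, at folds of 1.92 to 2.1 and 1.61 to 2.1. In Pde11, a cyclic nucleotide phosphodiesterase gene, folds were 1.84 to 1.91 and 1.85 to 2.23. Each of these 3 genes had 1 region of all 3 lists.

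A further 14 genes held 3 members each. The 4 of them with the best ranked members were toc, a microtubule-associated protein gene, Eip63F-1, which encodes a calcium-binding protein induced by ecdysone, cpo, an RNA-binding protein gene, and cno, which encodes the junction protein Canoe. In Eip63F-1 the members lay 1278 to 3690 bp from a gene end with folds of 2.03 to 2.82 and 1.87 to 2.42, and the gene held no region of all 3 lists. The antisense RNA gene asRNA:Eig63F-2 lay 379 bp from its strongest member.

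**Figure D4:**
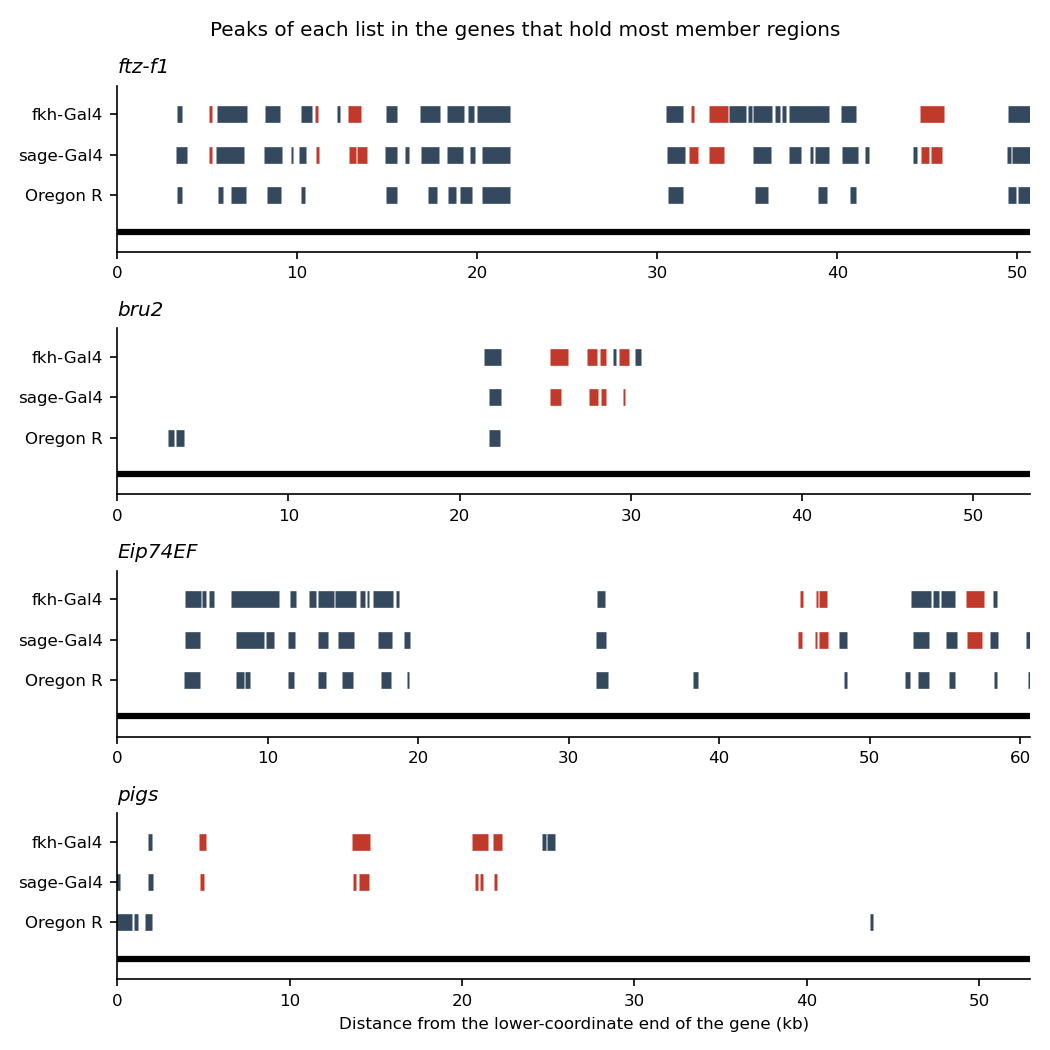
Peaks of the fkh-Gal4, sage-Gal4 and Oregon R lists (rows) along ftz-f1, bru2, Eip74EF and pigs, as bars to scale by distance from the lower-coordinate end of the gene (x axis, kb), with red for peaks of member regions, dark blue for other peaks and black for the gene. Members lie among common regions in ftz-f1 and Eip74EF and stand in stretches with no Oregon R peak in bru2 and pigs.

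Members lay near one another in places. When members up to 10000 bp apart were joined, 319 stood alone, 110 were in pairs and 59 were in 17 groups of at least 3. The largest group, 6 members over 22.6 kb of 2L, was at chinmo, a BTB zinc finger gene, with 11 Oregon R peaks among them. A group of 5 on 2R covered 20.6 kb at atos, Roc2, CG9003 and CG13198 with 6 Oregon R peaks among them.

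Genes of the salivary gland held several members. Of 30 genes of the gland in 2 lists, one of transcription factors and one of other gland genes, 9 met either rule (30.0%) against 2.75% of all protein-coding genes, and 3 had a member at an end (10%) against 0.817%. These lists and the gene lists below were drawn up with results of these data known, so their shares are not independent evidence. The 30 genes had a median length of 4.59 kb, which does not describe all of the 9. Among them cv-c (90.0 kb), ps (37.6 kb) and CrebA (17.8 kb) were longer, in length classes where 4.74 to 20.1% of genes held a member. By contrast nur, sage and PH4alphaSG2 were 0.893 to 1.91 kb long.

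Of the 14 gland transcription factor genes, 4 had a member. The highest was in eyg, a Pax-type factor gene needed in the salivary duct, at 3L from 12465788 to 12466860, with folds of 2.62 and 2.27 in the fkh-Gal4 and sage-Gal4 lists, 926 bp from an Oregon R peak. In sens, a zinc finger gene needed for survival of gland cells, the member had folds of 2.20 and 2.08. Both genes had a region of all 3 lists at an end and the member inside the gene.

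The gene sage itself had a member at 3R from 9263185 to 9264553, with a summit 9 bp from a gene end and folds of 1.95 and 2.02. This member was also at an end of TrpRS, with its fkh-Gal4 summit 168 bp from sage and 717 bp from TrpRS. No Oregon R peak lay on sage or within 1000 bp of it, and the nearest was 1583 bp from the member with a fold of 2.0. Sequence of sage may be carried by the sage-Gal4 driver, and the member was in the fkh-Gal4 list too, whose embryos are not stated to carry that driver. In CrebA a member from 15547876 to 15548160 on 3L had folds of 1.89 and 1.68, next to 2 regions of all 3 lists at the gene, and the CrebA sequence of the transgene is present in both driver groups. Of the other loci whose sequences the constructs can carry, neither fkh, nor w, nor the 6 Hsp70 genes had a member. The part of transgene copies in these values was not tested.

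Of 16 other gland genes 5 had a member. At nur a region from 13735674 to 13736828 on 2L had folds of 2.65 and 2.30, with no Oregon R peak at the gene and the nearest 3119 bp away. At PH4alphaSG2, a prolyl hydroxylase gene of the gland, a region at 3R from 30489787 to 30490628 lay 53 bp from the gene, with folds of 2.31 and 2.20, and also beside Jon99Fi, a serine protease gene, on its other side. These genes, with sage, had driver peaks at their ends and no Oregon R peak at the gene.

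The remaining gland genes held members inside them. They were cv-c, a RhoGAP gene of 90.0 kb, with 2 members of which the higher had folds of 2.61 and 2.40, ps, an RNA-binding protein gene (1.78 and 1.95), and Papss, which makes the sulfate donor for sulfation (1.66 and 1.81). Oregon R had 12 summits in ps and 17 in cv-c, so there members added to peaks that Oregon R also had.

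**Figure D5:**
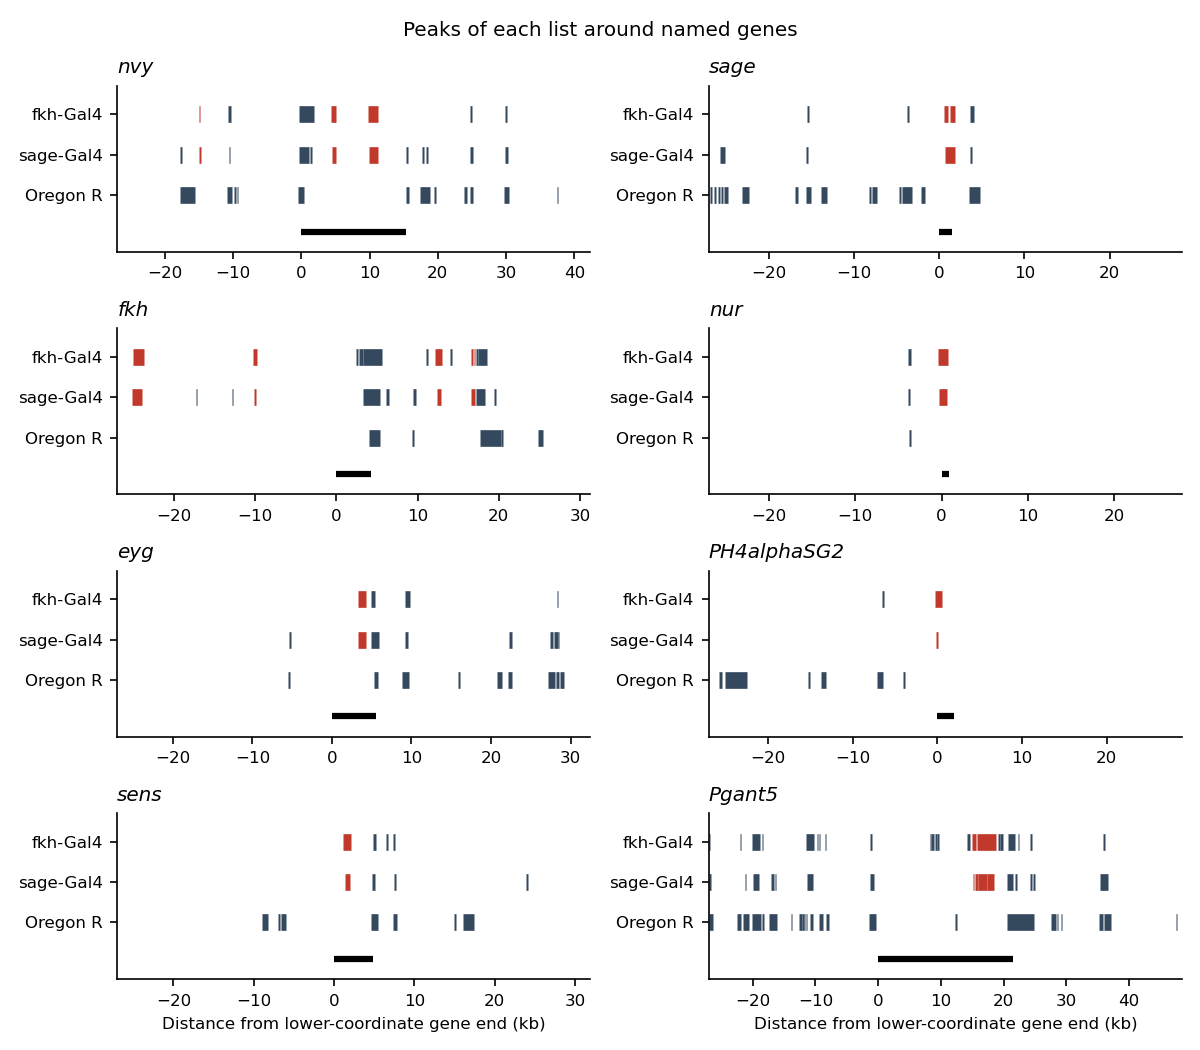
Peaks of the 3 lists (rows) around nvy, fkh, eyg, sens, sage, nur, PH4alphaSG2 and Pgant5, as bars to scale by distance from the lower-coordinate gene end (x axis, kb), with red for peaks of member regions, dark blue for other peaks and black for the gene. Red peaks lie on both sides of fkh, with Oregon R peaks beyond its higher-coordinate end too. Red peaks also lie at the ends of sage, nur and PH4alphaSG2, where Oregon R has none.

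Genes of O-glycosylation and sulfation had members at 5 of 17 (29.4%), against 2.75% of all protein-coding genes, and their median length was 4.92 kb. Besides Tpst, Pgant5 and Papss they were C1GalTA, which encodes the galactosyltransferase that extends O-glycans, with a summit 111 bp from an end and folds of 1.77 and 2.06, and sll, the Golgi transporter of the sulfate donor, with a summit 400 bp from an end and folds of 1.71 and 1.96. Tpst (29.4 kb) and Pgant5 (21.4 kb) were in a length class where 13.7% of genes held a member. C1GalTA and sll were 7.76 and 2.44 kb long. Regions of all 3 lists lay at the ends of 11 of the 17, and of 25.3% of all protein-coding genes. This list too was drawn up with results of these data known, so its share with members is not independent evidence.

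The listed genes of the core secretory machinery had none. Over 87 genes of ER translocation (22), COPII and ER exit (17), COPI (10), ER folding and glycosylation (19) and Golgi tethering (19), no gene had a member at an end or inside, while 80 (92.0%) had a region of all 3 lists at an end. At the background of 0.817% of genes with a member at an end, and with a median gene length of 2.59 kb, a count of 0 among 87 is near the background and is no result about the members. Secretory pathway genes outside these lists did hold members, among them Gmap, a golgin gene (2.36 and 1.92), Rab10, and alpha-Man-Ib, which encodes an N-glycan trimming enzyme (2.14 and 1.66).

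Ecdysone response genes had members in 6 of 19 (31.6%), all inside the gene, against 2.24% of all protein-coding genes. These genes are long, with a median of 33.4 kb, and in the class of 20000 to 50000 bp 13.7% of genes held a member. Of the 6, ftz-f1, Eip74EF, tai and Eip75B were 50.7 to 114 kb long, in the class over 50000 bp, where 20.1% did. Besides ftz-f1 and Eip74EF they were tai, which encodes a coactivator of the ecdysone receptor, with 3 members of which the highest had folds of 1.79 and 2.18, and the nuclear receptor genes Eip75B (1.7 and 2.0), Hr3 (2.12 and 1.88) and Hr4 (1.98 and 1.67). Regions of all 3 lists were inside 14 of the 19, and inside 16.6% of all protein-coding genes.

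Of the signalling pathways, genes of Wnt and Hedgehog signalling had members in 5 of 23 (21.7%), against 2.24% of all protein-coding genes and 4.74% of those of 5000 to 20000 bp, the class of the list's median length of 14.2 kb. They were in arr, the Arrow coreceptor gene (1.97 and 2.02), fz2 and fz, receptor genes, dally, a glypican gene, and nkd, a feedback inhibitor gene. All were intragenic. Of these genes, arr (29.6 kb) and nkd (41.7 kb) are in the class of 20000 to 50000 bp, where 13.7% of genes held a member. The genes dally (63.7 kb) and fz2 (94.4 kb) are in the class over 50000 bp, where 20.1% did. Notch pathway genes, with a median length of 4.61 kb, had members in 4 of 24 (16.7%), which were nvy, mam, numb and Delta. These 4 were longer than the median, at 15.4, 69.2, 26.7 and 23.5 kb in that order. The gene of the Notch ligand Delta held 2 members, with folds of 1.83 and 1.71 and of 1.58 and 1.67, 172 and 2977 bp from an Oregon R peak. Members were in 2 of 20 BMP and activin genes (Mad and dally), 1 of 20 EGF receptor and Ras genes (S) and 1 of 14 JAK/STAT and FGF genes (Stat92E). These shares of 5 to 10% stand beside the 4.74% of genes of 5000 to 20000 bp, with list medians of 7.34 to 15.0 kb. Of the genes with a member, dally and S (28.1 kb) are in longer classes. Apart from nvy, the highest driver fold of a member in these genes was 2.03, in S.

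Genes of other tissues were listed in the same way. Members were in or at 3 of 18 hemocyte and fat body genes, ush and the laminin genes LanB1 and LanA, 2 of 16 muscle genes, Zasp52 (2.09 and 2.74) and how, 1 of 18 epidermis and cuticle genes, the cuticle protein gene Cpr49Aa, and 1 of 11 genes of the Malpighian tubule and amnioserosa, again ush. None was at 19 trachea, 18 gut and proventriculus or 13 neuron genes. Nor was any at the 23 genes of anterior-posterior patterning, 15 Hox genes and cofactors, or 13 heat shock genes. Shares of 0 to 16.7% stand beside the background of 2.75%, with lists so short that 1 gene moves them by several percent. A count of 0 in such a list is no result about the members, and the hemocyte (16.7%) and muscle (12.5%) shares are above the background. Median gene lengths were 6.22 kb for the hemocyte, 16.8 kb for the muscle and 32.9 kb for the neuron list. The genes ush, Zasp52 and how were 37.1 to 64.3 kb long. The member in Zasp52 with folds of 2.09 and 2.74 also lay in tun. It was 8092 bp from an end of tun and 14785 bp from one of Zasp52.

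Among cell structure and regulatory genes, members were in 3 of 33 genes of axon guidance and adhesion (NetB, ed and Fas1), 2 of 28 of actin and myosin (kst and dia), 1 of 18 of gland invagination and polarity (baz), 2 of 26 chromatin regulators (nvy and lolal) and 2 of 17 bZIP genes (CrebB and CrebA). The axon guidance list has a median length of 40.6 kb, and its 9.09% lies below the 13.7% of all genes of 20000 to 50000 bp. The other 4 lists have medians of 8.66 to 15.4 kb, and their 5.56 to 11.8% stand beside the 4.74% of genes of 5000 to 20000 bp. Of their genes with a member, kst (31.3 kb) and baz (40.7 kb) are in the class of 20000 to 50000 bp. The member in NetB, a netrin gene, was 31112 bp from an Oregon R peak with folds of 2.07 and 2.27. It also lay at a gene end, 808 bp from hog. The member in CrebB, the gene of the cAMP response factor, had folds of 1.77 and 1.81.

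Some members lay near non-coding genes. A lncRNA gene end lay within 1000 bp of 16 members (3.28%) and an antisense RNA gene end of 5 (1.02%). A tRNA gene was near 4 (0.820%), a miRNA gene near 2 (0.410%), mir-4912 and mir-4980, and a snoRNA gene near 1 (0.205%). In the comparison set the shares were 6.53% for lncRNA, 3.85% for antisense RNA, 0.748% for tRNA, 0.604% for miRNA and 0.949% for snoRNA genes. The tRNA and miRNA counts are near those shares and are no result about the members. The strongest member at a tRNA gene lay 74 bp from tRNA:Thr-TGT-1-1.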

How the data were processed

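Per the submitters' processing notes, the aligner was BWA, the genome dm6 and the peak caller MACS2 2.1.0.20140616. How the input libraries entered the calls is not given in the sources used here. Each deposited peak list gives a start, an end and a summit offset (another unit, in bp), a fold enrichment ratio, the −log10 of a p-value and of a q-value, all from the authors' caller, and an integer score that was not used. The lowest −log10 q in the deposited lists was 1.30 to 1.31. Depth is unknown from peak lists.

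Regions were merged at 1 bp of overlap, classed by list and described by the highest peak of each list. Genes came from a table by NCBI RefSeq on release 6 of the assembly, with 13946 protein-coding genes on the arms and no strand. Of the symbols in 30 gene lists 7 were not matched to a current name or a synonym of 1 gene, and Dl, dp and Star were read as Delta, dpy and S. Members and lists were chosen with earlier results of these data known, and lists are set beside the share of all genes, with no set test. Named were the 20 members best by the worse rank in the driver lists, the 10 genes holding most members, up to 4 genes per list, all loci the constructs can carry, the 5 members nearest to, farthest from and widest, and the 5 largest groups. The regions around fkh other than the best ranked, and Gmap, alpha-Man-Ib, CG12310, CG18581, CG13947, CG30411, CG9812, Jon99Fi, hog, tun, TrpRS, fz, Hr3, Hr4, Papss and the non-coding genes were chosen after their values were seen. The planned motif counts were not run, as no genome sequence was used here. The alternatives tried were summits within 150 bp, a reciprocal overlap of 50%, a −log10 q of at least 10, Oregon R peaks widened by 500 bp, arms only, windows of 500 and 2000 bp, the nearest gene only, and ranks by −log10 q. Genes of all biotypes and single summits were added after the data were seen. Tools were pandas 2.3.3, numpy 2.4.6, matplotlib 3.10.9 and scipy 1.17.1 in Python 3.11.15. On simulated peaks the code was tested, and 100 of 100 planted regions of this class were recovered among 400.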

Additional observations from a re-analysis of the deposited data

How the results depend on the processing

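The set depends on what counts as an Oregon R peak at the same place. With a reciprocal overlap of 50% there were 1264 regions, 52.4% of them at a gene end (comparison set 56.1%), with 1081 genes at ends, 888 genes around them and a median gap to Oregon R of 0 bp. With summits within 150 bp there were 1398, 51.5% at a gene end (56.9%), 1152 genes at ends, 992 genes around them, and a gap of 0 bp. By construction these rules admit regions that touch an Oregon R peak (72.1% and 69.7%), and among those that do not, 18.7% and 17.5% were at a gene end. Of the 488 members, 350 and 418 were kept.

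With driver peaks at a −log10 q of at least 10, 27 members remained, all of them among the 488, with 6 genes at ends, 23 genes around them and a median gap of 2582 bp. With that limit on all lists there were 103, of which 76 touch an Oregon R peak below the limit, with 28 and 87 genes and a gap of 5546 bp. The share at gene ends was then 14.8 and 19.4%. With Oregon R peaks widened by 500 bp 371 were left with a gap of 2545 bp. Windows of 500 and 2000 bp gave shares of 11.5 and 28.5% (comparison set 53.1 and 68.5%) and 74 and 218 genes, and genes of all biotypes 21.1% (65.6%). Ranked by −log10 q, the median percentiles were 44.2 and 52.5 (31.7 and 26.4). The other counts stayed within 1.5 times, and the other shares and medians within the 95% interval, of the values in the text. No paired analysis was possible because each group has 1 library. Peak lists hold no depth, so a weak Oregon R signal under the caller's limit cannot be seen.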
